A study of Sus scrofa with 12 samples.

Results

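The insulin-like growth factor (IGF) system consists of secreted ligands, their cell-surface receptors and a family of soluble binding proteins. The genes described here were chosen by symbol: the ligands IGF1 and IGF2, the receptors IGF1R and IGF2R, and the binding proteins IGFBP2, IGFBP3, IGFBP4, IGFBP5, IGFBP6 and IGFBP7. They are 10 of the 21674 coding genes in the expression table. RNA from pig testis was sequenced in 4 groups of 3 boars: Hezuo boars at 30 days (Ha) and 120 days (Hb), and Landrace boars at 30 days (La) and 120 days (Lb). The testes were obtained by castration, so the ages come from separate animals, and the p-values measure spread between these boars. The comparisons ask which transcripts differ with age within a breed, which differ with breed at an age, and whether the age difference itself differs between the breeds.

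IGF1 and IGF2 act mainly through IGF1R, a receptor tyrosine kinase that signals through insulin receptor substrates, PI3K, AKT and mTOR. IGF2R, the cation-independent mannose 6-phosphate receptor, takes up IGF2 and carries it to lysosomes, and the binding proteins hold the ligands outside cells until proteases release them. In the testis, IGF signalling is known for its part in Sertoli cell proliferation and in Leydig cell maturation.

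Each library held between 17165519 and 23758931 estimated counts over the coding genes. Values of a gene across libraries are given as CPM, counts scaled to library totals with TMM factors over the 12 libraries. Levels of different genes are compared as FPKM, the deposited values per kilobase of transcript, within libraries. A difference was called when the edgeR adjusted p was under 0.05 and the log2 fold change was over 1 in size. Hezuo library Hb1 stood apart from Hb2 and Hb3 in most of 7 Leydig cell markers. CYP17A1, an enzyme of androgen synthesis, stood at 467.8 FPKM in Hb1, 7.92 in Hb2 and 6.63 in Hb3. INSL3, a peptide hormone of Leydig cells, stood at 1548.9, 83.7 and 27.4 FPKM in the same order. STAR, CYP11A1 and LHCGR were also highest in Hb1, whereas HSD3B1 stood at 9.58, 7.41 and 9.85 FPKM and HSD17B3 at 43.5, 74.1 and 74.7 FPKM, lowest in Hb1. Of the summed squared deviations of IGF1R from the group means over the 12 libraries, 96.8% lay in Hb; the share was also 96.8% for IGFBP6, 86.5% for IGF2 and 38.5% over the genes kept.

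IGFBP7 had the highest FPKM of the members in each of the 4 groups, and IGF2R came next. In Ha, the means were 210.6 FPKM for IGFBP7, 50.7 for IGF2R and 30.7 for IGF1R, followed by IGFBP2 at 16.2, IGFBP6 at 13.6, IGFBP4 at 13.3, IGF2 at 10.5, IGF1 at 4.54 and IGFBP3 at 2.09. The values of IGFBP2 overlapped those of IGFBP6, those of IGFBP6 overlapped IGFBP4, and those of IGF1 overlapped IGFBP3. In Hb, the order was IGFBP7 at 39.4 FPKM, IGF2R at 25.6, IGF1R at 13.1, IGF1 at 4.94, IGFBP4 at 2.75, IGF2 at 2.54, IGFBP2 at 1.85, IGFBP6 at 1.59 and IGFBP3 at 0.5. From IGF1R downwards, every neighbour in this Hb order overlapped the next. In La, IGFBP7 stood at 165.2 FPKM, IGF2R at 51.8, IGF1R at 27.6, IGF2 at 21.9, IGFBP4 at 20.2, IGFBP6 at 15.6, IGFBP2 at 10.2, IGF1 at 6.14 and IGFBP3 at 0.8, with overlap from IGF2 to IGFBP4 and from IGFBP4 to IGFBP6. In Lb, IGF1 was the third member of the order: IGFBP7 stood at 80.4 FPKM, IGF2R at 34.5, IGF1 at 17.8, IGFBP6 at 14.4, IGF1R at 11.6, IGF2 at 5.71, IGFBP4 at 5.03, IGFBP2 at 1.67 and IGFBP3 at 0.44. There, IGF1 overlapped IGFBP6 and IGF2 overlapped IGFBP4. IGFBP5 was listed at 0 in each of the 12 libraries.

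IGF2, the ligand known for fetal and early postnatal growth, was lower at 120 than at 30 days in both breeds. The 3 Ha boars had 51.7, 58.5 and 55.5 CPM of IGF2, and the 3 Hb boars had 9.27, 26.3 and 18.1 CPM. The La boars had 93.9, 124.7 and 123.1 CPM, and the Lb boars had 39.5, 31.7 and 37.5 CPM. No 2 of the 4 groups overlapped: La was highest, then Ha, then Lb, then Hb, and Hb1 was the lowest library. IGF2 fell with age 3.09-fold in Hezuo (log2 fold change -1.63 ± 0.34 SE, adjusted p = 0.00383). In Landrace it fell 3.11-fold (log2 fold change -1.64 ± 0.15, adjusted p = 2.64e-05). The age differences on the log2 scale differed between breeds by -0.03 ± 0.39, adjusted p = 0.989. At 30 days IGF2 was 2.06-fold higher in Landrace than in Hezuo boars (log2 fold change 1.04 ± 0.12, adjusted p = 0.00216). This value lay near the threshold on the fold change: without Ha1 it was 1.0, and without La2 or without La3 it was 0.99, each too small for a call, as was 0.97 in limma on log2(FPKM + 1). At 120 days the breed difference was 1.05 ± 0.36 with an adjusted p of 0.12 and was not called, and without Hb2 it was 1.47 with an adjusted p of 0.0377 and was called.

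IGF1, the ligand induced by growth hormone in many tissues, stood highest in the older Landrace boars. The Ha boars had 27.5, 22.0 and 10.9 CPM of IGF1, and the Hb boars had 47.6, 32.1 and 16.3 CPM. The La boars had 24.3, 21.6 and 33.9 CPM, and the Lb boars had 67.2, 55.4 and 111.7 CPM. The Lb libraries lay above those of the other 3 groups, which overlapped one another. IGF1 rose with age 2.97-fold in Landrace (log2 fold change 1.57 ± 0.29, adjusted p = 0.00132). In Hezuo the age difference was 0.67 ± 0.45 on the log2 scale (adjusted p = 0.216), and the difference between the breeds' age effects, 0.88 ± 0.58, was not called (adjusted p = 0.387). Breed at 120 days gave a log2 fold change of 1.34 ± 0.41 and an adjusted p of 0.0924, and breed at 30 days gave 0.40 ± 0.32 with an adjusted p of 0.41. The ratio of estimated count to FPKM, scaled to each library, moved 1.8-fold between libraries for IGF1, against a median of 1.02-fold over genes with enough counts. For that reason the values of IGF1 per boar differ somewhat between the count and FPKM scales.

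The ratio of IGF2 to IGF1 in FPKM, taken within each library, turned over with age. It was 1.91, 1.9 and 4.03 in Ha and 3.87, 4.25 and 2.91 in La. It was 0.189, 0.833 and 0.835 in Hb and 0.413, 0.326 and 0.268 in Lb. All 6 libraries of 30 days had more IGF2 than IGF1 per length, and all 6 libraries of 120 days had less. In Hb3 this order depended on the scale: its estimated counts were 275 for IGF2 and 247 for IGF1. Hb1 had the lowest ratio, and Hb2 and Hb3 lay above the Lb libraries.

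**Figure D1:**
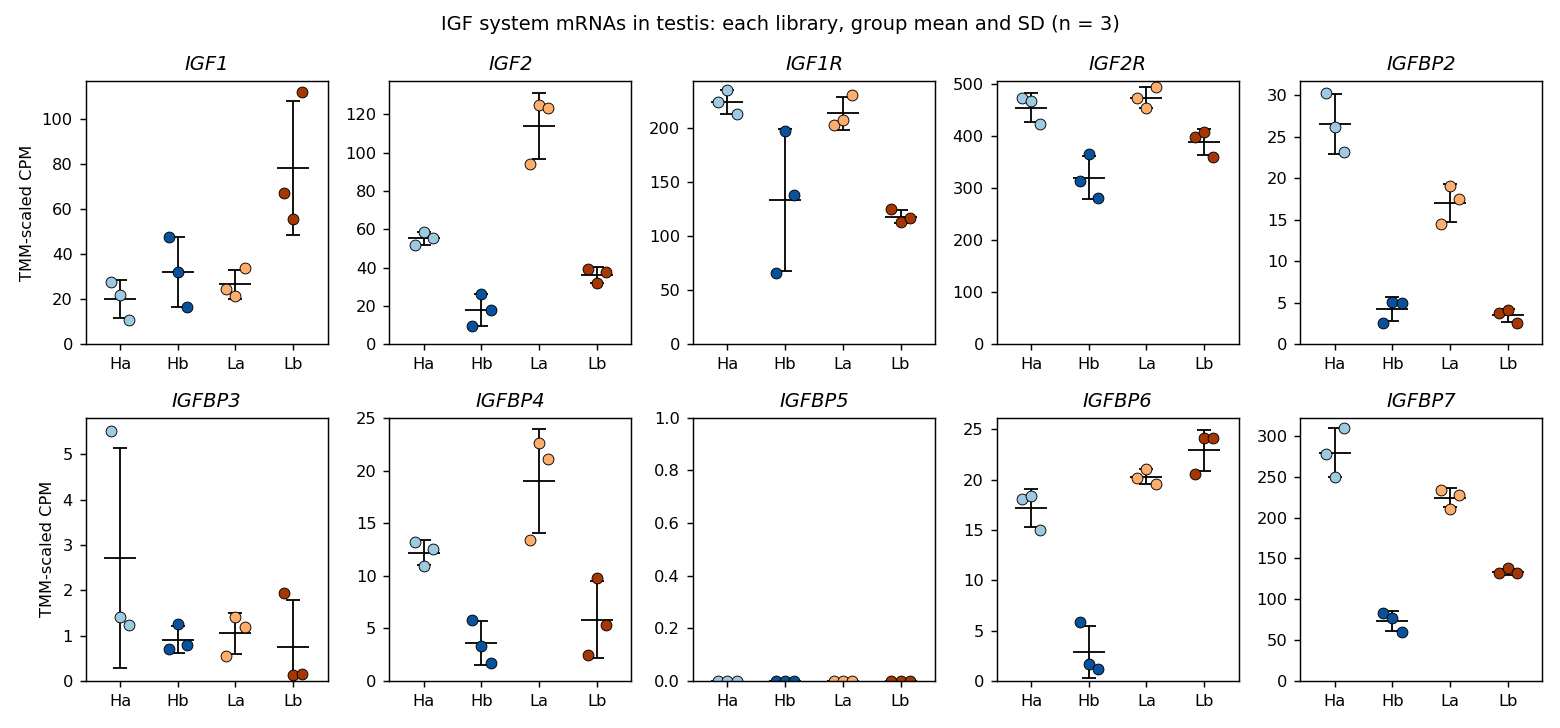
CPM of each of the 10 members in each library (points), with group mean and SD as lines, for Ha, Hb, La and Lb (3 boars each). IGF2 separates all 4 groups, IGF1 is highest in Lb (55.4 to 111.7), IGFBP6 is lowest in Hb (1.19 to 5.85), and IGFBP5 is at 0.

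IGF1R, the signalling receptor, had no called difference. The Ha boars had 223.9, 234.8 and 212.8 CPM of IGF1R, and the Hb boars had 66.2, 196.6 and 137.5 CPM. The La boars had 202.3, 207.3 and 230.7 CPM, and the Lb boars had 124.8, 112.5 and 116.2 CPM. Both older groups lay wholly below the younger group of their breed, and Hb spanned the widest range, with Hb1 lowest. The log2 fold change with age was -0.84 ± 0.10 in Landrace (adjusted p = 0.000128), which missed the call on its size, and -0.75 ± 0.34 in Hezuo (adjusted p = 0.0849). Without Hb2 the Hezuo value was -1.15 with an adjusted p of 0.0198 and was called. Without TMM factors the values were -1.02 in Hezuo and -1.01 in Landrace, and both were called, as they were with upper-quartile factors and in limma on FPKM. The age effects differed between breeds by -0.11 ± 0.39 (adjusted p = 0.9). The breed differences were -0.07 ± 0.09 at 30 days (adjusted p = 0.591) and -0.15 ± 0.35 at 120 days (adjusted p = 0.822).

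IGF2R, the clearance receptor for IGF2, varied least with age among the tested members in Hezuo when counts were scaled with TMM factors. In mean FPKM, IGF1 moved less there, from 4.54 in Ha to 4.94 in Hb, while IGF2R moved from 50.7 to 25.6. The CPM of IGF2R were 471.7, 467.5 and 421.8 in Ha and 314.1, 364.8 and 281.1 in Hb. They were 473.4, 452.7 and 494.4 in La and 398.1, 406.5 and 360.0 in Lb. The older boars lay below the younger ones in each breed, while the breeds overlapped at each age in CPM, and in FPKM the Lb boars lay above the Hb boars. The log2 fold change with age was -0.50 ± 0.13 in Hezuo (adjusted p = 0.0119) and -0.27 ± 0.10 in Landrace (adjusted p = 0.0317), both too small for a call. The interaction was 0.22 ± 0.16 (adjusted p = 0.443). Breed gave 0.06 ± 0.08 at 30 days (adjusted p = 0.653) and 0.32 ± 0.15 at 120 days (adjusted p = 0.219). The within-library ratio of IGF2R to IGF1R in FPKM was 1.73, 1.72 and 1.51 in Ha, 3.62, 1.62 and 1.65 in Hb, 2.04, 1.78 and 1.83 in La, and 2.92, 3.16 and 2.83 in Lb. The ratio was above that of every 30-day library in Hb1 and in the 3 Lb libraries, and not in Hb2 or Hb3.

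IGFBP2, a binding protein with a preference for IGF2, was low in all older boars. The Ha boars had 30.3, 26.1 and 23.1 CPM of IGFBP2, and the Hb boars had 2.55, 5.11 and 4.94 CPM. The La boars had 14.5, 19.0 and 17.5 CPM, and the Lb boars had 3.75, 4.09 and 2.57 CPM. Ha lay above La, both lay above the older groups, and Hb and Lb overlapped. IGFBP2 fell with age 6.3-fold in Hezuo (log2 fold change -2.66 ± 0.29, adjusted p = 0.00017) and 4.84-fold in Landrace (log2 fold change -2.28 ± 0.23, adjusted p = 4.28e-05). The age effects differed between breeds by 0.36 ± 0.37 (adjusted p = 0.592). The breed difference was -0.64 ± 0.15 at 30 days (adjusted p = 0.0213), too small for a call, and -0.24 ± 0.38 at 120 days (adjusted p = 0.725).

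IGFBP4, an inhibitory binding protein cleaved by the protease PAPPA, was also lower in the older boars. Its CPM were 13.2, 10.9 and 12.5 in Ha and 5.8, 3.3 and 1.71 in Hb. They were 13.4, 22.6 and 21.1 in La and 2.45, 9.74 and 5.34 in Lb. Both older groups lay below both younger groups and overlapped each other, and the La boars lay just above the Ha boars in CPM and overlapped them in FPKM. IGFBP4 fell with age 3.38-fold in Hezuo (log2 fold change -1.76 ± 0.41, adjusted p = 0.00691). In Landrace it fell 3.23-fold (log2 fold change -1.69 ± 0.45, adjusted p = 0.00877), and without Lb2 the log2 value was -2.28. The interaction was 0.05 ± 0.65 (adjusted p = 0.986). Breed gave 0.64 ± 0.21 at 30 days (adjusted p = 0.0629) and 0.74 ± 0.58 at 120 days (adjusted p = 0.448).

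IGFBP6, a binding protein with a strong preference for IGF2, was low in the older Hezuo boars. The Ha boars had 18.1, 18.4 and 15.0 CPM of IGFBP6, and the Hb boars had 5.85, 1.67 and 1.19 CPM. The La boars had 20.2, 21 and 19.6 CPM, and the Lb boars had 20.6, 24.1 and 24.1 CPM. All Hb libraries lay below all others, Hb1 was the highest of them, and La and Lb overlapped. IGFBP6 fell with age 5.9-fold in Hezuo (log2 fold change -2.56 ± 0.56, adjusted p = 0.00502), and in Landrace the age difference was 0.20 ± 0.14 (adjusted p = 0.224). The Landrace value turned to -0.07 with upper-quartile factors. The age effects differed between the breeds by 2.74 ± 0.58 on the log2 scale (adjusted p = 0.0193), a called difference. At 120 days IGFBP6 was 8.22-fold higher in Landrace than in Hezuo boars (log2 fold change 3.04 ± 0.54, adjusted p = 0.0246), and at 30 days the difference was 0.23 ± 0.12 (adjusted p = 0.218). The call at 120 days was lost when 1 of several libraries was left out. The adjusted p was 0.0601 without Hb3, 0.0655 without Lb1, 0.0896 without Lb2 and 0.0808 without Lb3, with log2 values from 2.68 to 3.12. It was also lost with replicate number as a block (log2 fold change 3.33, adjusted p = 0.0606), and over all alternatives the adjusted p ran from 8.19e-08 to 0.0896. Without Hb1 the differences were larger: -3.56 with age in Hezuo, 4.01 with breed at 120 days and 3.77 for the interaction.

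IGFBP7, a secreted protein with an IGFBP domain that binds IGFs weakly, was the most abundant binding protein transcript per length. The Ha boars had 278.1, 249.5 and 309.6 CPM of IGFBP7, and the Hb boars had 83.3, 77.2 and 59.4 CPM. The La boars had 233.7, 211.0 and 227.2 CPM, and the Lb boars had 131.5, 138.0 and 131.8 CPM. The groups did not overlap, in the order Ha, La, Lb and Hb. IGFBP7 fell with age 3.81-fold in Hezuo (log2 fold change -1.93 ± 0.17, adjusted p = 6.04e-05). In Landrace the difference was -0.73 ± 0.09 (adjusted p = 0.00018), too small for a call with counts, and it was called in limma on FPKM (-1.03 and -1.04 with pseudocounts of 1 and 0.1). The interaction was called, at 1.18 ± 0.185 (adjusted p = 0.00664). The breed difference was -0.32 ± 0.10 at 30 days (adjusted p = 0.0492) and 0.91 ± 0.16 at 120 days (adjusted p = 0.0237), and neither passed the threshold on the fold change.

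IGFBP3, the main IGF carrier of blood plasma, was scarce in these libraries. Its estimated counts were 144.1, 34.9 and 31.9 in Ha, 11.6, 26.6 and 12.0 in Hb, 13.3, 28.1 and 30.4 in La, and 41.7, 3.49 and 2.52 in Lb. Ha1 and Lb1 were each the highest library of their group, Lb3 lay under a floor of 3 counts, and Lb2 lay just over it. The log2 fold change with age was -1.56 ± 0.67 in Hezuo (adjusted p = 0.0695) and -0.46 ± 0.90 in Landrace (adjusted p = 0.662). No comparison of IGFBP3 was called in the edgeR fits as reported, and without Lb1 the Landrace value was -2.76 with an adjusted p of 0.00817. Without Ha3 the Hezuo age difference was called too, as it was without TMM factors and with upper-quartile factors. The breed differences were -1.38 ± 0.65 at 30 days (adjusted p = 0.165) and -0.26 ± 0.95 at 120 days (adjusted p = 0.887), and the interaction was 1.09 ± 1.27 (adjusted p = 0.644).

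IGFBP5, a binding protein of connective tissue and bone, had neither counts nor FPKM above 0 in any library. The table lists 1020 coding genes, 4.71% of them all, at 0 throughout. Among 86 ribosomal protein symbols, RPL11 and RPL18 were likewise at 0, so a 0 in this table does not by itself show that a transcript was absent. IGFBP5 was therefore not tested, which leaves 9 members in the counts that follow.

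**Figure D2:**
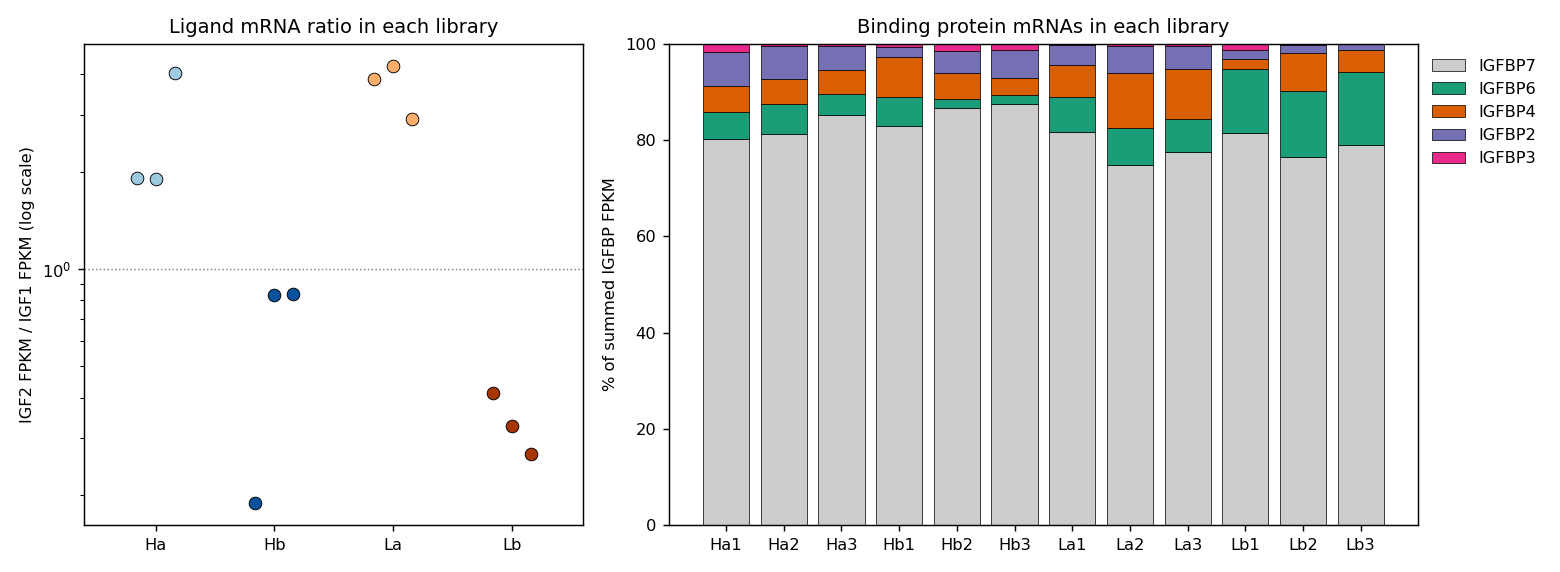
Left, the ratio of IGF2 to IGF1 in FPKM in each library on a log scale. Right, the percent of the summed binding protein FPKM from each binding protein in each library, where IGFBP6 takes 13.3 to 15.1% in Lb and 1.83 to 6.1% in Hb.

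IGFBP7 made up between 74.8 and 87.5% of the summed binding protein FPKM in the 12 libraries. The share of IGFBP6 was 5.49, 6.27 and 4.33% in Ha, 6.1, 1.98 and 1.83% in Hb, 7.34, 7.76 and 6.96% in La, and 13.3, 13.9 and 15.1% in Lb. The Lb boars thus lay above all others in this share, and Hb2 and Hb3 lay below. Binding protein FPKM summed over the family exceeded ligand FPKM in every library. The ratio of these sums was 16.7, 14.5 and 20.2 in Ha, 5.78, 6.26 and 6.62 in Hb, 9.68, 6.81 and 6.87 in La, and 4.85, 5.66 and 3.29 in Lb. Ha lay above the other groups, and Lb lay below Hb. Ratios and shares within a library were not tested.

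Age in Hezuo boars gave 5 called members of the 9 tested, all lower at 120 days: IGF2, IGFBP2, IGFBP4, IGFBP6 and IGFBP7. Over the 16548 genes tested in that comparison, 51.4% were called, 28.2% as higher and 23.2% as lower. The median log2 fold change of the members was -1.63, and that of all genes tested was -0.02. Age in Landrace boars gave 3 lower members, IGF2, IGFBP2 and IGFBP4, and 1 higher, IGF1. There, 47.6% of 16637 genes were called, 27.5% as higher and 20.1% as lower, with a median of -0.73 for the members and 0.01 for all genes. In both age comparisons the share of members called in either direction lay near that of all genes. By direction, 5 of 9 members were lower in Hezuo against 23.2% of all genes, and 3 of 9 were lower in Landrace against 20.1%, and these shares of 9 chosen genes were not tested.

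Breed at 30 days gave 1 called member, IGF2, higher in Landrace. In that comparison 7.62% of 15648 genes were called, 3.60% as higher and 4.01% as lower. The median was 0.06 for the members and 0 for all genes. Breed at 120 days gave 1 called member, IGFBP6, higher in Landrace, while 3.85% of 16311 genes were called, 2.65% as higher and 1.20% as lower. The median was 0.74 for the members and 0 for all genes. The interaction over the 12 libraries gave 2 called members, IGFBP6 and IGFBP7, both with the higher log2 age difference in Landrace. Of 17332 genes, 5.14% were called there, 3.51% as higher and 1.62% as lower, and the medians were 0.36 for the members and 0.02 for all genes. The comparisons share groups, so their values are given side by side without a test across them.

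**Figure D3:**
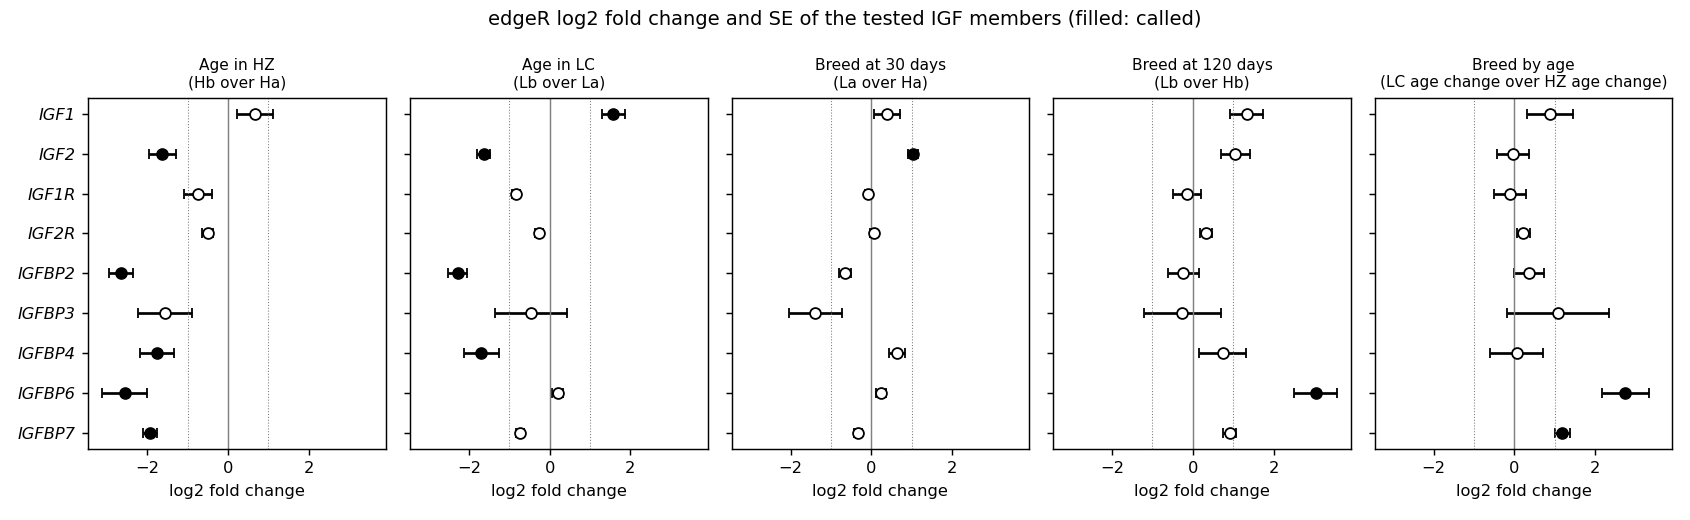
Log2 fold change (points) and SE (bars) of the 9 tested members in the 4 comparisons and the interaction, with called values filled and dotted lines at 1 and -1. IGFBP6 shows the largest breed difference at 120 days (3.04) and the largest interaction (2.74).

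Scaling shifted the whole distribution in the age comparisons. The median over all genes in Hezuo moved from -0.02 to -0.32 without TMM factors and to -0.34 with upper-quartile factors, and the share of called genes that were higher at 120 days moved from 54.8% to 44.1% and 43.7%. In Landrace the median moved from 0.01 to -0.16 and -0.25, and the higher share was 57.7% with TMM and 47.1% with upper-quartile factors. For the interaction without TMM factors the median was 0.17 and the higher share 81.6%, against 68.4% with TMM. For breed at 120 days the higher share was 68.8% in edgeR and 79.7% and 80% in limma on FPKM.

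Proteins that carry, cleave or release the ligands were described from a list of 13 genes in the table, of which 11 were tested in each age comparison. In Hezuo, 2 were higher and 4 lower at 120 days, and in Landrace, 1 was higher and 4 were lower. The shares of all genes to read such counts against, here and in the lists that follow, are 28.2% higher and 23.2% lower in Hezuo and 27.5% higher and 20.1% lower in Landrace. PAPPA, the metalloproteinase that cleaves IGFBP4, had a mean of 103.2 ± 19.5 CPM (SD, n = 3) in Ha, 9.91 ± 5.01 in Hb, 29.6 ± 17.1 in La and 13.3 ± 6.22 in Lb. It fell with age in Hezuo by 10.4-fold (adjusted p = 0.000243). At 30 days it was 3.49-fold lower in Landrace (adjusted p = 0.0127), and without La3 the adjusted p was 0.0602. In Landrace the age difference of -1.15 was called at an adjusted p of 0.0449, and the call was lost without La1 (-0.59, adjusted p = 0.197), La3 (0.055), Lb1 (0.12) or Lb3 (0.134), with the replicate block (0.0716) and in limma on log2(FPKM + 1) (-0.78). ADAM12, another protease that cleaves binding proteins, fell from 94.0 ± 4.22 to 8.07 ± 3.64 CPM in Hezuo and from 109.5 ± 9.19 to 18.8 ± 5.95 CPM in Landrace. LRP1, an endocytic receptor, fell from 2010.2 ± 248.3 to 345.4 ± 120.1 CPM in Hezuo and from 1608.6 ± 129.7 to 517.6 ± 105.6 CPM in Landrace. PAPPA2, which cleaves IGFBP3 and IGFBP5, rose from 1.75 ± 0.764 to 5.97 ± 1.1 CPM in Landrace (3.44-fold), and in limma on log2(FPKM + 1) the log2 value was 0.31 and not called. In Hezuo PAPPA2 and HSP90B1, the chaperone needed to fold IGFs, were called higher (log2 fold changes 1.25 and 1.19), and without TMM factors the values were 0.95 and 0.89 and were not called, nor were they with upper-quartile factors or in limma on FPKM. TMEM219, a receptor for IGFBP3, stood at 28.6 ± 4.53 CPM in La and 35.8 ± 1.25 CPM in Lb and was not called.

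Other proteins with an IGFBP domain, such as the CCN family and the HTRA proteases, numbered 13 in the table and 12 tested. In Hezuo, 1 was higher and 7 were lower with age, and in Landrace, 4 were higher and 3 lower. The 4 higher in Landrace were CTGF, NOV, KAZALD1 and ESM1, and none of these 4 was called in limma on log2(FPKM + 1). The interaction was called for 4 of 12, CTGF, NOV, WISP1 and HTRA3, each with the higher age difference in Landrace, against 3.51% of all genes tested called in that direction. CTGF, a matricellular CCN protein, averaged 109.3 ± 12.0 CPM in Ha, 47.7 ± 17.8 in Hb, 28.1 ± 1.38 in La and 60.0 ± 4.59 in Lb. It fell 2.3-fold with age in Hezuo and rose 2.17-fold in Landrace (0.95 on the log2 scale and not called without TMM factors, nor called with upper-quartile factors or in limma), with an interaction of 2.30 ± 0.29 (adjusted p = 0.00308). At 30 days CTGF was 3.9-fold lower in Landrace (adjusted p = 0.000126). HTRA3, a secreted serine protease, averaged 31.6 ± 4.95 CPM in Ha, 4.2 ± 0.937 in Hb, 36.8 ± 5.6 in La and 26.5 ± 2.79 in Lb. It fell 7.5-fold with age in Hezuo, was 6.5-fold higher in Landrace at 120 days (adjusted p = 0.00438) and had an interaction of 2.43 ± 0.27 (adjusted p = 0.00159). Like IGFBP6, HTRA3 was lowest in all 3 Hb libraries.

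HTRA1, a related protease, averaged 169.4 ± 56.0 CPM in Ha, 13.8 ± 2.69 in Hb, 360.4 ± 46.8 in La and 42.4 ± 7.11 in Lb. It fell 12.2-fold with age in Hezuo and 8.41-fold in Landrace. It was higher in Landrace 2.13-fold at 30 days (log2 0.92 without Ha2, not called) and 3.16-fold at 120 days (adjusted p = 0.0119, 0.0558 without Lb2 and 0.0548 with the block). HTRA4 fell from 8.26 ± 2.51 to 0.499 ± 0.125 CPM in Hezuo and from 7.46 ± 2.06 to 0.862 ± 0.161 CPM in Landrace. CYR61, another CCN protein, was 2.69-fold lower in Landrace at 30 days (adjusted p = 0.0197), and the adjusted p was 0.058 without Ha2, 0.0654 without La1 and 0.0727 without La2. The CCN proteins NOV and WISP1 had interactions close to the threshold (2.82 ± 0.64, adjusted p = 0.0265, and 2.09 ± 0.58, adjusted p = 0.0497). With age in Landrace, NOV was called at 1.05 in log2 terms, and it held in 8 of 15 alternatives and was lost without La1 (0.82) or Lb3 (0.87). The call on the NOV interaction was lost without Ha1, Ha2, La1, La2, La3 or Lb3, with adjusted p of 0.0522, 0.0675, 0.0608, 0.0505, 0.0539 and 0.0514. The WISP1 call was kept without Ha1 and without Hb1 and lost without any other library, with adjusted p from 0.0506 to 0.104, and it was also lost with no filter, with the block and in limma on log2(FPKM + 1). KAZALD1 rose from 1.64 ± 0.257 to 5.57 ± 1.35 CPM in Landrace, and in limma on log2(FPKM + 1) the log2 value was 0.77 and not called. In Hezuo its call (log2 fold change 1.20) was lost without Ha1 (adjusted p = 0.0639), Ha3 (0.0543) or Hb2 (0.0577), without TMM factors (0.90), with upper-quartile factors (0.89) and in limma (0.40 and 0.67), so that it held in 8 of 15 alternatives. ESM1 stood at 0.288 ± 0.361 CPM in La and 2.43 ± 0.434 CPM in Lb and was called higher, except in limma on log2(FPKM + 1), where the log2 value was 0.60.

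Growth hormone induces IGF1 through its receptor, JAK2 and STAT5. Of the 7 genes of this axis in the table, 3 of 5 tested were lower with age in Hezuo and 3 of 6 in Landrace: GHR, STAT5A and SOCS2. STAT5A, a transcription factor, fell from 70.2 ± 3.68 to 24.7 ± 4.01 CPM in Hezuo and from 68.0 ± 5.48 to 21.9 ± 4.55 CPM in Landrace. SOCS2, a feedback inhibitor of growth hormone signalling, fell from 35.3 ± 9.98 to 4.35 ± 0.172 CPM in Hezuo and from 44.3 ± 1.32 to 7.83 ± 2.9 CPM in Landrace. GHR, the growth hormone receptor, lay near the threshold, at -1.07 in Hezuo and -1.14 in Landrace on the log2 scale. It was not called in limma on log2(FPKM + 1), at -0.96 in each breed, nor in Hezuo without Hb3, at -0.93. PRLR, the prolactin receptor, was called higher in Landrace at 30 days at 0.418 ± 0.0933 CPM in Ha and 1.06 ± 0.184 CPM in La (adjusted p = 0.0396). The PRLR call was lost without any 1 of the 6 libraries (adjusted p from 0.0688 to 0.116) and in 6 other alternatives, DESeq2 (0.0681) among them.

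Insulin family receptors and adaptors, 9 tested, had 4 lower genes with age in each breed. IRS1, an adaptor of IGF1R, fell from 63.4 ± 13.9 to 14.3 ± 1.78 CPM in Hezuo and from 57.6 ± 4.32 to 16.8 ± 4.38 CPM in Landrace. GRB10, an adaptor that inhibits the receptor, fell 3.6-fold with age in Hezuo (adjusted p = 0.000648) and 3.63-fold in Landrace (adjusted p = 9.76e-06). INSR, the insulin receptor and a partner of IGF1R in hybrid receptors, fell from 205.4 ± 21.7 to 73.8 ± 12.9 CPM in Landrace. In Hezuo INSR stood at 222.6 ± 32.3 and 123.4 ± 29.8 CPM and was not called. SHC1, an adaptor to the RAS pathway, stood at 134.4 ± 4.01 CPM in Ha, 73.6 ± 6.07 in Hb, 114.8 ± 5.44 in La and 73.9 ± 15.3 in Lb and was not called with age in either breed.

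The PI3K, AKT, FOXO and mTOR cascade had 20 genes tested, with 3 higher and 5 lower with age in Hezuo and 3 higher and 4 lower in Landrace, which is no larger a share than that of all genes called. AKT2 and MTOR were among the higher genes in both breeds. MTOR, the growth-controlling kinase, rose from 247.0 ± 1.44 to 824.3 ± 97.2 CPM in Hezuo and from 193.5 ± 5.11 to 656.4 ± 94.2 CPM in Landrace. AKT2 rose from 148.4 ± 11.0 to 402.9 ± 79.9 CPM in Hezuo and from 148.5 ± 7.96 to 349.2 ± 26.7 CPM in Landrace, where the log2 value with upper-quartile factors was 0.98 and not called. AKT1, by contrast, fell from 156.2 ± 11.7 to 58.9 ± 8.55 CPM in Hezuo and stood at 188.6 ± 6.91 and 94.6 ± 3.47 CPM in Landrace, not called. PIK3R2, a regulatory subunit of PI3K, fell from 50.2 ± 1.97 to 18.1 ± 3.5 CPM in Hezuo and from 58.4 ± 7.68 to 26.5 ± 1.75 CPM in Landrace. FOXO4, a transcription factor held in the cytoplasm by AKT, fell from 41.9 ± 5.1 to 18 ± 3.12 CPM in Hezuo and from 53.8 ± 3.7 to 19.2 ± 3.42 CPM in Landrace.

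Genes known to regulate IGF2 or to bind its mRNA numbered 8 in the table, since ZBED6, a repressor of IGF2 in pig muscle, was not listed. With age, 3 of 7 tested were lower in Hezuo, and 1 was higher and 2 were lower in Landrace. IGF2BP1, an IGF2 mRNA-binding protein, averaged 35.1 ± 1.8 CPM in Ha, 9.98 ± 5.89 in Hb, 12.5 ± 1.47 in La and 6.53 ± 0.294 in Lb. At 30 days it was 2.82-fold lower in Landrace (adjusted p = 0.000574), where IGF2 was higher. IGF2BP2 fell from 16.1 ± 2.87 to 4.0 ± 1.2 CPM in Hezuo and from 13.9 ± 1.19 to 4.46 ± 0.875 CPM in Landrace. PLAGL1, an imprinted zinc finger factor, fell from 21.3 ± 2.25 to 5.3 ± 2.33 CPM in Hezuo and from 26.0 ± 3.17 to 4.75 ± 1.34 CPM in Landrace. CTCFL, the germ cell paralogue of the insulator protein CTCF, rose from 1.21 ± 0.219 to 18.5 ± 4.97 CPM in Landrace, and it stood at 4.33 ± 2.51 CPM in Ha and 8.64 ± 4.65 CPM in Hb. Its interaction was called (2.92 ± 0.71, adjusted p = 0.0336), and the call was lost without Ha1, Ha2, La1, La2, La3, Lb2 or Lb3 (adjusted p from 0.0543 to 0.0806). Its breed difference at 30 days (log2 fold change -1.84, adjusted p = 0.0324) was lost without Ha1, Ha2, La1, La2 or La3 (adjusted p from 0.0826 to 0.104), with the block and in limma on log2(FPKM + 1).

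Whole testis was sequenced, so fewer cells of a type and less RNA per cell cannot be told apart, and the marker lists moved strongly with age. The tissue label was testis, and defining markers of germ cells, Sertoli cells and Leydig cells were present. The 8 spermatocyte markers summed to 10.5, 11.0 and 6.5 FPKM in Ha, 151.4, 156.7 and 134.1 in Hb, 5.4, 4.76 and 4.41 in La, and 115.7, 110.3 and 123.8 in Lb, with PIWIL1 the most abundant. All 8 were higher with age in each breed. The 10 spermatid markers, led by the protamine PRM1, summed to 5.72, 7.02 and 6.73 FPKM in Ha, 5280.0, 5792.8 and 7666.8 in Hb, 10.8, 9.39 and 4.53 in La, and 3909.3, 3341.6 and 3575.5 in Lb. Of these, 9 of 9 tested were higher with age in each breed. The 11 spermatogonial markers, led by DDX4, summed to 76.0, 73.3 and 59.5 FPKM in Ha, 177.2, 182.1 and 172.8 in Hb, 41.2, 40.6 and 43.9 in La, and 155.0, 139.8 and 162.1 in Lb. DDX4 alone made up 58.4% of that sum, and 6 of the 11 were lower with age in Hezuo and 5 in Landrace, against 3 and 4 higher.

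Summed markers of somatic cells were lower in the older boars of each breed. The 8 Sertoli cell markers, led by INHA, summed to 782.0, 750.6 and 973.3 FPKM in Ha, 180.9, 288.4 and 216.0 in Hb, 1507.9, 1770.5 and 1632.1 in La, and 310.8, 384.8 and 370.5 in Lb, and 4 of 8 were lower with age in each breed. The 7 Leydig cell markers, led by INSL3, summed to 5487.1, 5008.8 and 4883.2 FPKM in Ha, 2180.4, 189.2 and 128.3 in Hb, 7771.4, 5340.6 and 6281.0 in La, and 2708.4, 4057.3 and 1711.9 in Lb. With age, 4 of 7 were lower in Hezuo and 5 of 7 in Landrace. Hb1 was the Hb library with the highest Leydig sum, the highest IGF1, IGFBP4 and IGFBP6, and the lowest IGF2 and IGF1R. The 5 endothelial markers, led by VWF, summed to 93.7, 94.5 and 84.4 FPKM in Ha, 13.9, 26.7 and 15.7 in Hb, 97.9, 78.3 and 91.0 in La, and 28.2, 45.7 and 28.6 in Lb, with 5 lower in Hezuo and 3 in Landrace. The 5 macrophage markers, led by CSF1R, summed to 40.3, 32.7 and 32.6 FPKM in Ha, 3.49, 4.56 and 2.24 in Hb, 38.3, 33.0 and 36.3 in La, and 5.91, 9.64 and 9.91 in Lb, with 5 lower in Hezuo and 4 in Landrace.

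In summed FPKM, peritubular and stromal markers were higher in all Lb than in all Hb libraries. So were the Sertoli cell, endothelial and macrophage sums above. The endothelial sums lay close, at 26.7 in Hb2 and 28.2 in Lb1, and 0 of 8 Sertoli cell markers were called at 120 days. IGF1, IGF2, IGFBP6, IGFBP7 and, in FPKM, IGF2R were also higher in all Lb than in all Hb libraries. Of these members only IGFBP6 was called there, and the share of all genes separated in this way was not counted. The 10 peritubular and stromal markers, led by the collagen gene COL3A1, summed to 976.5, 949.8 and 978.3 FPKM in Ha, 101.8, 100.6 and 66.5 in Hb, 1341.0, 1224.5 and 1512.0 in La, and 530.1, 515.6 and 562.2 in Lb. With age, 8 of 10 were lower in Hezuo, and in Landrace 5 were lower and 1, ACTA2, was higher. At 120 days 5 of 10 were higher in Landrace (ACTA2, COL1A1, COL1A2, COL3A1 and PDGFRB), and 2 were without Hb3, without Lb1, without Lb2 or without Lb3, when the calls of COL1A2, COL3A1 and PDGFRB were lost. Of all genes tested, 2.65% were higher in Landrace at 120 days, 3.60% were higher and 4.01% lower at 30 days, and the interaction was called higher for 3.51% and lower for 1.62%. The interaction was called for the same 5 genes, COL1A1 with the largest value at 4.02 ± 0.34 (adjusted p = 0.000372). That count was 2 without Ha1, La1, La2, La3 or Lb2, and 3 without Ha2, Hb3 or Lb1. At 120 days 0 of 7 Leydig cell markers were called in edgeR and 0 in DESeq2, while 3 had an unadjusted p under 0.05 in edgeR, and without Hb1 5 were called higher in Landrace. The endothelial marker PECAM1 (log2 fold change 1.41, adjusted p = 0.0484) and the macrophage marker AIF1 (2.17, 0.0447) were higher in Landrace at 120 days too, and the spermatid marker AKAP4 was lower (-1.10, 0.0283), a call lost without Hb3 (0.0934), Lb2 (0.115) or Lb3 (0.0988). The PECAM1 call was lost without any 1 of the 6 libraries (adjusted p from 0.0597 to 0.14), and the AIF1 call without any but Hb1 (0.0638 to 0.145). Both also had called interactions, 1.92 for PECAM1 and 1.94 for AIF1, and that of AIF1 was lost without Ha1, Ha2, Hb3, La2, La3, Lb2 or Lb3 (adjusted p from 0.0543 to 0.0658). Among germ cell markers the interaction was called higher for the spermatogonial DAZL (1.53, kept in 20 of 20 alternatives) and KIT (adjusted p = 0.041), and lower for the spermatid PRM1 (-1.83) and ACRV1 (-2.96). The KIT call was lost without any library but Ha3, Hb2 or Lb3 (adjusted p from 0.0655 to 0.103). That of PRM1 was lost without any but Hb1, Hb2 or La3 (0.05 to 0.0913), and that of ACRV1 without Ha1, Ha3, Hb1, La1, La2 or Lb3 (0.0516 to 0.102). At 30 days 3 Sertoli cell markers (AMH, FSHR and INHA) and 1 Leydig cell marker (HSD17B3) were higher in Landrace. Lower there at 30 days were the spermatogonial marker DAZL (log2 fold change -1.66), 4 of 8 spermatocyte markers (SYCP1, SYCP2, HORMAD1 and PIWIL1) and the red blood cell marker ALAS2 (-1.79). The 4 spermatocyte calls were each lost without Ha1, Ha2, La2 or La3, and those of SYCP1 and PIWIL1 without La1 too (adjusted p from 0.0535 to 0.139). The ALAS2 call was lost without Ha1 (0.0512), Ha2 (0.0505) or La3 (0.0704).

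**Figure D4:**
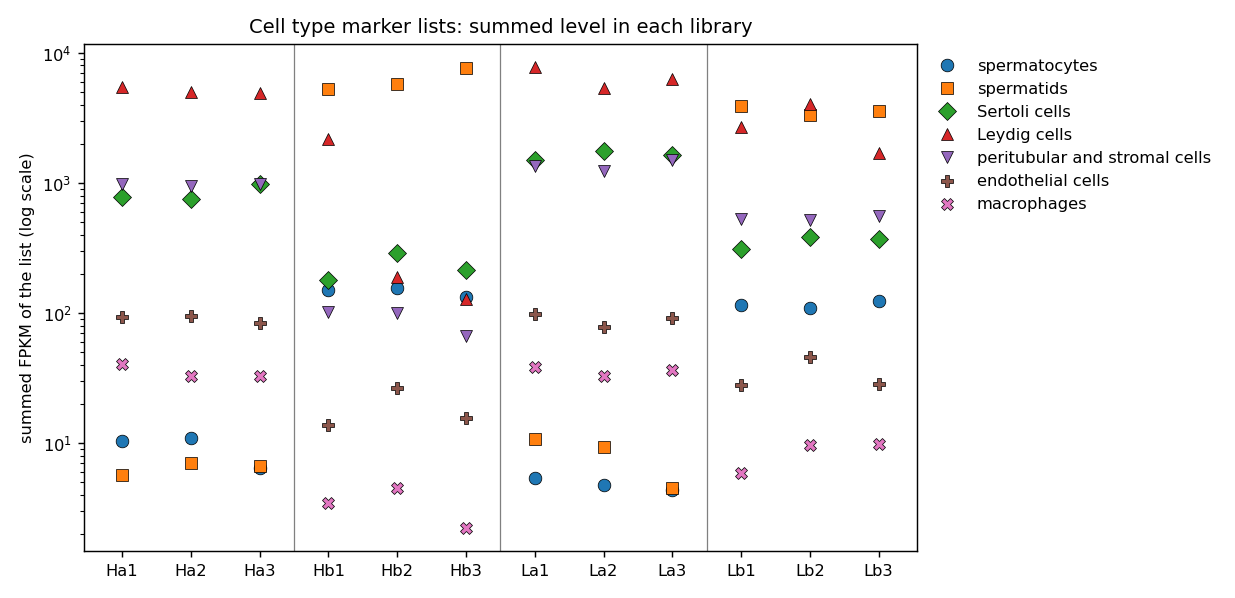
Summed FPKM of 7 cell type marker lists in each library, on a log scale, with groups divided by lines. Leydig cell markers are at 2180.4 in Hb1 against 189.2 and 128.3 in Hb2 and Hb3, and stromal markers are at 66.5 to 101.8 in Hb against 515.6 to 562.2 in Lb.

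Other cells the dissection can hold were checked as well. MRAP made up 99.7% of the adrenal-like sum, which was 19.5, 11.3 and 19.4 FPKM in Ha, 2.97, 0.53 and 1.97 in Hb, 26.3, 23.8 and 23.6 in La, and 4.63, 6.35 and 3.23 in Lb. MC2R stood at or near 0, and CYP11B1 was not in the table. Red blood cell markers, led by HBB, summed to 157.8, 218.6 and 62.9 FPKM in Ha, 4.02, 16.3 and 26.2 in Hb, 105.8, 36.7 and 35.7 in La, and 12.8, 17.7 and 43.3 in Lb. No marker in the table was at 0 in all libraries, though NANOS2, STRA8, PRM2, TNP1, ACRV1, SPACA3, AKAP4, EMCN and MC2R were among those at 0 in some. The part of any of these cell types in the IGF results was not tested.

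The genes whose log2 CPM ran most like a member's over the 12 libraries, among 16633 compared, are given as a description. Pearson's r was 0.989 between IGFBP7 and AIFM1, 0.988 between IGFBP2 and THRB, 0.986 between IGF1R and SHB, 0.98 between IGF2 and TDG, 0.98 between IGF2R and HYAL1, and 0.979 between IGFBP6 and FSTL1. For IGFBP4 it was 0.972 with LPXN, for IGFBP3 0.9 with MPPED1 and for IGF1 0.899 with SCARA5. After each group's mean was subtracted, the nearest genes were others for all 9 members: AIFM1 gave way to SERINC2 (0.962) for IGFBP7, and FAM35A (0.988) came ahead of SHB (0.981) for IGF1R. Between members, IGF2 and IGF1R had an r of 0.79 over the libraries and 0.96 after subtraction. IGFBP6 and IGF1R had 0.17 and -0.84, in the same order. For IGF1R, IGFBP6 and IGF2 these within-group values rest largely on Hb, by the shares of squared deviations above. For IGFBP3 and IGFBP4 the largest share lay in Lb, at 62.4% and 51.2%.

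The members lie apart on the Sscrofa11.1 assembly, with a single exception. IGFBP2 (chr15:118822092-118850985) and IGFBP5 (chr15:118861816-118877787) are 10831 bases apart, and only the former had counts. IGF1 lies at chr5:81762027-81909253 and IGFBP6 at chr5:18352884-18357225, far apart on the same chromosome. IGF1R (chr1:137383623-137691038) and IGF2R (chr1:7369485-7472480) likewise share a chromosome. IGF2 lies at chr2:1469183-1496417, with the insulin gene INS 425 bases beyond it, which had at most 2 counts in a library. IGFBP3 lies at chr18:50002921-50009425, IGFBP4 at chr12:21966524-21980043 and IGFBP7 at chr8:56283089-56357822. The NCBI gene numbers are 397491 for IGF1, 396916 for IGF2, 397350 for IGF1R, 397214 for IGF2R, 397064 for IGFBP2, 448812 for IGFBP3, 100144490 for IGFBP4, 397182 for IGFBP5, 100101923 for IGFBP6 and 100302573 for IGFBP7. IGFBP1, 9062 bases from IGFBP3, had 16, 14 and 9 counts in Ha and at most 5 in any other library, and it was not tested.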

How the data were processed

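Total RNA from 12 pig testes was sequenced after removal of ribosomal RNA. The authors deposited, for each coding gene and library, an estimated count and an FPKM value (fragments scaled to transcript length and to the mapped fragments of the library). The submitters' notes name fastp 0.18.0, Bowtie2 2.2.8, HISAT2 2.1.0 and StringTie 1.3.4 with the Sus scrofa 11.1 assembly. Per the authors, FPKM came from StringTie; the tool behind the estimated counts is not stated, nor is any use of strand in counting. Library totals ran from 17165519 to 23758931 counts.

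Counts were rounded and fitted over the whole coding table in edgeR 4.0.16 (R 4.3.3) with filterByExpr at a minimum count of 10, TMM factors and quasi-likelihood tests, the 6 libraries of 2 groups at a time, or all 12 for the breed by age interaction, (Lb - La) - (Hb - Ha). P-values were adjusted by Benjamini-Hochberg over all genes tested. Per-library CPM used TMM factors over the 12 libraries, and log2 CPM for likeness used a prior count of 2. The SE was derived from the fold change and its F statistic. Alternatives were DESeq2 1.42.0, no TMM factors, upper-quartile factors, limma 3.58.1 on log2 FPKM with pseudocounts of 1 and 0.1, no filter, a stricter filter, replicate number as a block, all 12 libraries in 1 fit, and each library left out. The procedure was tested on simulated data. Tables and plots used Python 3.11.15.

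The members and the gene lists were chosen with earlier results of these data known. Named beside the members are list genes called for breed or interaction, the 2 smallest adjusted p per list, direction and age comparison, the most abundant marker of each list and markers at 0, and the 3 genes most like each member, of which the closest are printed; 2 genes under this rule are not reported here. Other genes named were chosen after their values were seen. Positions come from the RefSeq annotation of Sscrofa11.1, in which all 20666 NCBI gene IDs of the table were matched. Deposited lncRNA counts were not tested.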

Additional observations from a re-analysis of the deposited data

Results flagged for a closer look

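The age difference of IGFBP6 differed between the breeds by 2.74 on the log2 scale, by the interaction test in edgeR (adjusted p = 0.0193). That of IGFBP7 differed by 1.18 (adjusted p = 0.00664). Each was called under the 20 alternatives tried, with values from 2.44 to 3.77 for IGFBP6 and from 1.09 to 1.39 for IGFBP7.

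Signals next to IGF1 stood in the lncRNA table, which the comparisons above do not use. MSTRG.8471, an assembled locus with 6 transcripts that ends 12370 bases before IGF1, had 0 counts in the 6 libraries of 30 days, and its summed estimated count was at least 115.3 in the libraries of 120 days. The sums were 121.77, 152.18 and 115.3 in Hb and 194.32, 222.28 and 196.88 in Lb. As with IGFBP5, counts of 0 do not by themselves show that these transcripts were absent at 30 days. LOC110260785, inside the span of IGF1, had at least 27 counts in the libraries of 120 days and at most 18 in those of 30 days. LOC110260784, also inside that span, had at least 52 counts at 120 days and at most 35 at 30 days. These lncRNAs were chosen after their values were seen, and their differences were not tested.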

How the results depend on the processing

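Of 720 log2 fold changes of members recomputed under the alternatives, 659 kept their direction and their side of the threshold, 24 passed it in addition, 9 no longer passed it and 28 changed sign. Members called for breed at 30 days (1) numbered 0 in limma on log2(FPKM + 1) and 0 to 1 with a library left out. Members called for breed at 120 days (1) numbered 3 in DESeq2 (IGF1, IGF2 and IGFBP6), 3 in limma on FPKM with either pseudocount (IGF1, IGFBP6 and IGFBP7), 2 with all 12 libraries in 1 fit, 0 with the replicate block and 0 to 2 with a library left out. Genes called for breed at 30 days (1192) numbered 507 in limma on log2(FPKM + 1). For breed at 120 days (628) they numbered 1153 in DESeq2, 154 with the block, 1227 in 1 fit and 97 to 1029 with a library left out (622 without Hb1, 1029 without Hb2, 119 without Hb3, 182 without Lb1, 97 without Lb2 and 139 without Lb3). For the interaction (890) they numbered 1363 in DESeq2, 1365 in limma on log2(FPKM + 0.1) and 437 to 1242 with a library left out (437 without Ha1, 501 without Ha2, 567 without Hb3, 577 without La1, 490 without La2, 461 without La3 and 575 without Lb2).

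Signs changed for differences that were not called as reported. IGFBP6 with age in Landrace was -0.07 with upper-quartile factors and -0.11 and -0.12 in limma. The interaction of IGF2 was 0.10 without TMM factors, 0.02 with upper-quartile factors, 0.19 in limma on log2(FPKM + 0.1) and 0.06 with the block. The interaction of IGF1R was 0.01 without TMM factors and 0.11 and 0.13 in limma. With a library left out, IGFBP3 ran from -2.76 to 0.03 for age in Landrace, from -2.54 to 0.23 for breed at 120 days and from -1.22 to 1.58 for the interaction. IGF1R ran from -0.48 to 0.27 for breed at 120 days and from -0.41 to 0.28 for the interaction, where IGF2 ran from -0.31 to 0.37 and IGFBP4 from -0.53 to 0.58. The cause was not tested.

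Replicate numbers did not mark pairs: after group means were subtracted, r between libraries of the same number ran from -0.022 to 0.053 over 12 pairs. Counts of pathway and marker genes under the alternatives, beside those for the members, were added after seeing the data. Depth limits IGFBP3 most, with 2.52 to 144.1 counts in a library. Each left-out library leaves 2 boars in its group.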
